A study of Mus musculus with 8 samples.

Results

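The genes described here are 44 DNA replication and S-phase genes, chosen by name from what their products do: origin recognition and licensing, the MCM helicase with *Mcm10*, *Cdc45* and the GINS complex, the replicative polymerases and primase, the clamp *Pcna* and its loader, the RPA complex, Okazaki fragment processing, nucleotide supply, and the S-phase regulators *E2f1*, *E2f2* and *Uhrf1*. The rule used the names of the genes, and earlier results of these data were known when the list was drawn up. All 44 were found among the 39089 genes counted and all 44 were among the 13921 genes tested. They were measured by RNA-seq in epithelial cells sorted as EpCAM+ CD45- from subcutaneous Myc-CaP tumors grown in FVB mice that were 6 weeks old at inoculation. Myc-CaP cells come from a mouse prostate carcinoma with a *Myc* transgene. The cells carried a control vector in the WT groups (labelled EV) and a CRISPR guide that targets *Arid1a* in the *Arid1a* KO groups, and the tumors were left with corn oil vehicle or treated by daily gavage with JSH-23, an inhibitor of the nuclear entry of the NF-κB subunit p65, for 2 weeks from day 16. There were 4 groups of 2 samples: WT with vehicle, WT with JSH-23, *Arid1a* KO with vehicle and *Arid1a* KO with JSH-23. No source used here says whether the KO cells were 1 clone, or whether the 2 samples of a group came from separate mice, so the p-values measure only the spread between these samples.

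In G1 the origin recognition complex, with Cdc6 and Cdt1, loads the MCM helicase onto origins, and Gmnn holds Cdt1 in check once S phase has begun. Cdc45 and GINS then join MCM to form the active helicase, the polymerase α-primase lays down primers, and Pold and Pole extend the strands on the PCNA clamp that the RFC complex loads. Many of these genes are known targets of the E2F transcription factors, which RB holds inactive until cells commit to S phase, and their transcripts are widely used as a measure of proliferation in tumors.

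Most of the genes changed in the same direction, with exceptions given below, and the promoters of the list were searched for short words. RefSeq promoter windows of GRCm38.p6, each from 250 bases before to 50 bases after a start, were held for 36 of the 44 genes (44 windows), and the other 8 were *Mcm4*, *Gins1*, *Gins2*, *Gins4*, *Pole*, *Prim2*, *Rfc2* and *Gmnn*. An E2F word (TTTCCCGC, TTTCGCGC, TTTGCCGC or TTTGGCGC, on either strand) lay in 15 of the 44 windows (34.1%), against 2.28% of all 32544 windows. The CCAAT box (CCAAT, either strand) lay in 63.6% of the windows against 37.4% of all, and the E-box (CACGTG) in 13.6% against 7.17%. The CHR (TTTGAA or TTCGAA, either strand), which is known from G2/M promoters, lay in 18.2% against 19.1%. A κB word (GGAATTTCC or GGACTTTCC, either strand) lay in 1 window, that of *Uhrf1* (2.27% against 0.664% of all). No E2F word contains a word of the other motifs. Below are 30 bases around the E2F words, in capitals, of the 4 genes with such a word with the largest log2 fold change on JSH-23 treatment of *Arid1a* KO tumors.
*Cdc6* (chr11:98908002-98908031, plus strand): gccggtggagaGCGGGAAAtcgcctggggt
*Gins3* (chr8:95633507-95633536, plus strand): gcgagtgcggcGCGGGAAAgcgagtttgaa
*Rfc3* (chr5:151651195-151651224, minus strand): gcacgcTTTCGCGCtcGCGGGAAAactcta
*Mcm3* (chr1:20820265-20820294, minus strand): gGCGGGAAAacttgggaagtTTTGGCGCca
In the GENCODE annotation of the same build the *Cdc6* stretch lies in an intron, since the RefSeq start is 350 bases inside the gene, and the other stretches overlap an exon at the gene's beginning. *Rfc3* and *Mcm3* each held 2 E2F words. Elsewhere in the list *Mcm6* held 3, and *Mcm5* and *Mcm7* held 2 each. *Fen1*, *Rrm2* and *Pcna*, whose changes are given with the results, had a window but no E2F word in it. The 15 genes with an E2F word had a median log2 fold change of -0.49 with JSH-23 in *Arid1a* KO tumors, and the 21 with a window but no such word also had -0.49. In WT tumors these medians were -0.72 and -0.68. No test of this split was run.

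Total counts ranged from 16401581 to 21972231 per sample, so that a count of 3 corresponded to 0.137 to 0.183 CPM (counts scaled to library size), and no value of the 44 genes was under 4.19 CPM. The library sizes were scaled with TMM factors. The targeted gene *Arid1a* was at 144 to 161 CPM in the WT samples and 93.8 to 106 CPM in the *Arid1a* KO samples, without overlap. *Epcam*, the marker named for the sort, was at 0 to 0.194 CPM in every sample, and *Krt18* and *Cdh1* were under 1 CPM, whereas *Krt8* and *Krt19* were at 11.6 to 113 CPM. The 6 epithelial markers summed to 98.6 to 109 CPM in WT with vehicle, 53.4 to 53.7 in WT with JSH-23, 224 to 228 in *Arid1a* KO with vehicle and 190 to 198 in *Arid1a* KO with JSH-23. The 13 leukocyte markers summed to 13.1 to 13.4 CPM in WT with vehicle and 5.47 to 13.8 in WT with JSH-23, against 3.43 to 4.12 in *Arid1a* KO with vehicle and 2.97 to 4.11 in *Arid1a* KO with JSH-23. *Ptprc* (CD45) was at most 0.558 CPM, and *Cd8a* and *Ly6g* were at 0 in all 8. The fibroblast list summed to 42.0 to 43.6 CPM in *Arid1a* KO with JSH-23 and 61.3 to 66.2 in the other groups, and *Pdgfra* made up 38.0 to 61.3 of these sums. The endothelial list summed to 1.13 to 3.59 CPM, and the erythroid list to 3.74 to 6.82 in WT and 8.73 to 12.6 in *Arid1a* KO. *Hba-a1* made up 3.21 to 4.41 CPM of the erythroid sums in WT and 7.77 to 11.2 in *Arid1a* KO. *Hbb-bs* overlapped between the genotypes, at 0.416 to 1.82 CPM in WT and 0.815 to 1.68 in *Arid1a* KO. Of the 4 leukocyte markers tested, 4 were lower in *Arid1a* KO with vehicle and 3 with JSH-23, and 1 and 4 of the 5 fibroblast markers tested were lower.

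The replication genes were highest in *Arid1a* KO tumors with vehicle and lowest in WT tumors with JSH-23. Their summed level was 3602 and 3568 CPM in WT with vehicle, 2397 and 2382 in WT with JSH-23, 4629 and 4670 in *Arid1a* KO with vehicle, and 3321 and 3354 in *Arid1a* KO with JSH-23. The groups did not overlap, and the *Arid1a* KO tumors with JSH-23 lay under the WT tumors with vehicle. By group means, 39 of the 44 genes (88.6%) were highest in *Arid1a* KO with vehicle and 41 (93.2%) were lowest in WT with JSH-23, against 30.5% and 22.7% of all genes tested, and 38 (86.4%) had both properties, against 14.3% of all genes. The summed epithelial markers had the same highest and lowest groups, but stood higher in *Arid1a* KO with JSH-23 than in WT with vehicle, and their part in these differences was not tested. In RNA from many cells, fewer cells in S phase and less of each transcript per cell cannot be told apart.

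**Figure D1:**
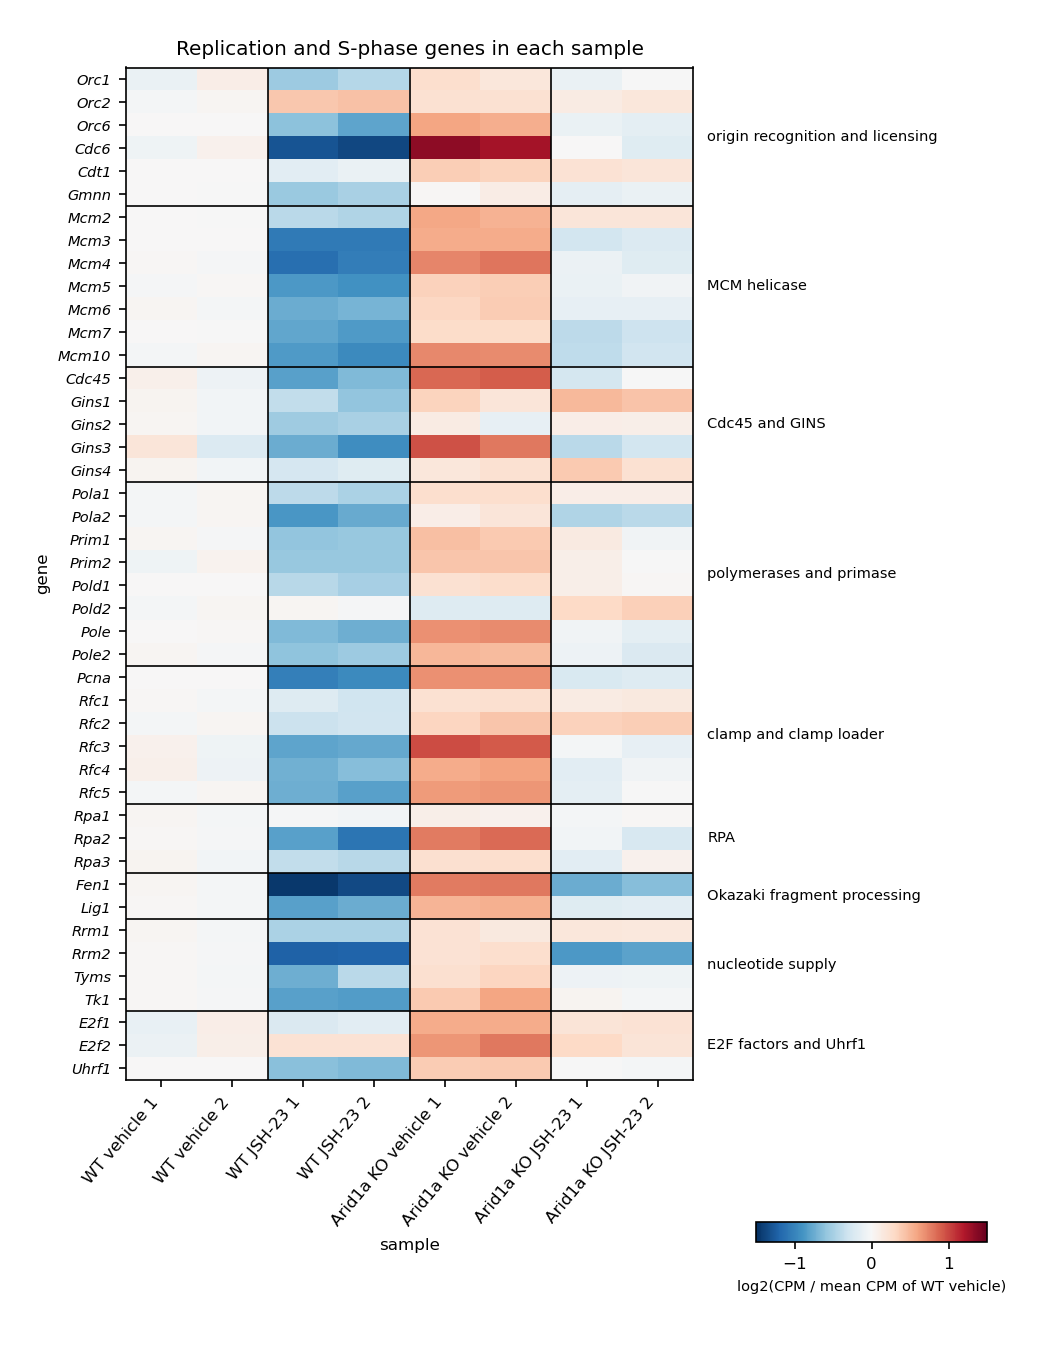
Levels of the 44 genes (rows, grouped by role) in the 8 samples (columns), as log2 of CPM over the mean CPM of the 2 WT samples with vehicle. The *Arid1a* KO samples with vehicle are red in most rows and the WT samples with JSH-23 blue, with *Orc2*, *Pold2* and *E2f2* as the exceptions among the latter.

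*Arid1a* loss was compared with the control vector first in vehicle-treated tumors. There 39 of the 44 genes were higher in *Arid1a* KO and 1 was lower at an adjusted p under 0.05 (edgeR's quasi-likelihood test, Benjamini-Hochberg adjustment over all genes tested, called the edgeR adjusted p from here on). Of all genes tested, 25.0% were called higher and 25.5% lower. The median log2 fold change of the 44 was 0.40, against 0.00 over all genes, and 12 were called and at least 1.5-fold higher, against 7.48% of all genes. In JSH-23-treated tumors 41 genes were higher in *Arid1a* KO and 1 was lower (23.2% and 23.8% of all genes). The median there was 0.59 and 22 genes were at least 1.5-fold higher (3.74% of all genes). The larger values with JSH-23 depended on the scaling. With limma on log2(TPM + 1) the medians were 0.396 with vehicle and 0.387 with JSH-23 (0.00836 and -0.159 over all genes). At least 1.5-fold higher there were 12 and 7 of the 44, against 767 and 168 of all 13921 genes. The 4 vehicle samples and the 4 JSH-23 samples are separate, and 36 genes were called higher in both comparisons, while *Orc2* and *Pold2* were called in opposite directions (10.9% and 7.30% of all genes). The leukocyte markers, and *Hba-a1* of the erythroid markers, also differed between the genotypes under both treatments. The fibroblast markers differed with JSH-23. The part of these markers in the differences of the 44 genes was not tested. The higher level of *Orc2* in *Arid1a* KO with vehicle (0.22) lost its call with DESeq2 (adjusted p = 0.0663) and without WT vehicle replicate 1 (0.19, edgeR adjusted p = 0.0812).

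JSH-23 was compared with vehicle within each genotype. In *Arid1a* KO tumors 37 of the 44 genes were lower with JSH-23 and 1 was higher, where 34.4% of all genes were called lower and 33.4% higher. The median log2 fold change was -0.45 against -0.02 over all genes, and 18 genes were called and at least 1.5-fold lower (16.9% of all genes). In WT tumors 40 genes were lower and 2 were higher (27.2% and 28.6% of all genes). The median was -0.61 against -0.01 over all genes, and 22 genes were at least 1.5-fold lower (10.2% of all genes). The lower level of these genes with JSH-23 was present without *Arid1a* loss. With TMM factors, 29 of the 44 had the larger log2 fold change in size in WT (38.4% of all genes). Which genotype had the larger median fall depended on the scaling. Without scaling the medians were -0.56 in *Arid1a* KO and -0.62 in WT (-0.133 and -0.0161 over all genes). With limma on log2(TPM + 1) they were -0.67 and -0.64 (-0.205 and -0.0358 over all genes). With TMM factors, 35 genes were called lower in both genotypes (19.6% of all genes), and *E2f2* alone was called in opposite directions (4.67% of all genes). The call of *E2f2* in WT was lost under several alternatives, given with that gene.

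The common biological coefficient of variation, which is the spread between samples beyond counting error, was 1.61%. With a coefficient of 10% put in its place (0.1), 23 genes were higher in *Arid1a* KO with vehicle, 30 were higher in *Arid1a* KO with JSH-23, 27 were lower with JSH-23 in *Arid1a* KO and 33 in WT, against 11.2%, 6.07%, 24.0% and 14.7% of all genes. At 0.2 these counts were 2, 1, 12 and 9, against 2.85%, 0.891%, 11.3% and 4.34%, so that the genotype counts were near the share of all genes.

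Cdc6, which helps load MCM at origins, had the widest range among the licensing genes. *Cdc6* (chr11:98907709-98923942) was at 21.5 and 23.4 CPM in WT with vehicle, 9.16 and 8.69 in WT with JSH-23, 56.9 and 53.2 in *Arid1a* KO with vehicle, and 22.4 and 19.8 in *Arid1a* KO with JSH-23. The *Arid1a* KO samples with vehicle stood far above the rest, and the *Arid1a* KO samples with JSH-23 overlapped the WT samples with vehicle. The level was 2.45-fold higher in *Arid1a* KO than in WT with vehicle, with a log2 fold change of 1.29 (standard error 0.073, edgeR adjusted p = 5.3e-25), and 2.35-fold higher with JSH-23. It was 2.62-fold lower with JSH-23 in *Arid1a* KO (log2 fold change -1.39, standard error 0.072) and 2.51-fold lower in WT. Its genotype differences were the largest among the 44 genes.

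The origin recognition subunits did not share a pattern. *Orc6* had log2 fold changes of 0.57 with vehicle and 0.58 with JSH-23 in *Arid1a* KO against WT, and fell by 0.69 and 0.70 on JSH-23 treatment of *Arid1a* KO and WT tumors. *Orc1* changed less, and its difference of 0.20 between *Arid1a* KO and WT with vehicle did not pass the test (edgeR adjusted p = 0.07). *Orc2*, a subunit of the same complex, stood apart from nearly all other genes of the list. *Orc2* (chr1:58462771-58505113) was at 26.3 and 27.3 CPM in WT with vehicle, 35.5 and 36.4 in WT with JSH-23, 31.4 and 31.3 in *Arid1a* KO with vehicle, and 29.3 and 30.1 in *Arid1a* KO with JSH-23. The WT samples with JSH-23 were the highest of all, where most of the list was lowest. With JSH-23 *Orc2* rose in WT by 0.42 on the log2 scale (standard error 0.073, edgeR adjusted p = 1.11e-06). In *Arid1a* KO tumors its difference of -0.08 did not pass the test (edgeR adjusted p = 0.325). The size of that difference depended on the scaling. In deposited TPM the mean of *Orc2* went from 22.3 to 17.9 with JSH-23 in *Arid1a* KO and from 19.0 to 24.7 in WT.

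Cdt1 and its inhibitor geminin differed in their response to JSH-23 in WT tumors. *Cdt1* (chr8:122568015-122573130) was at 103 CPM in both WT samples with vehicle, 92.4 and 95.8 in WT with JSH-23, 133 and 130 in *Arid1a* KO with vehicle, and 120 and 117 in *Arid1a* KO with JSH-23. With TMM factors it was 1.27-fold higher in *Arid1a* KO with vehicle and 1.26-fold with JSH-23, and 1.10-fold lower with JSH-23 in each genotype. The call of that fall in WT was lost without WT JSH-23 replicate 1 (-0.10). The falls depended on the scaling. In deposited TPM the mean of *Cdt1* went from 152 to 116 with JSH-23 in *Arid1a* KO and from 119 to 105 in WT. *Gmnn* (chr13:24751845-24761937) was at 51.5 and 51.1 CPM in WT with vehicle and 51.9 and 55.3 in *Arid1a* KO with vehicle, so the log2 difference was 0.06, with a 95% interval of -0.05 to 0.18 that did not pass the test (edgeR adjusted p = 0.365). With JSH-23 it was at 34.8 and 36.5 CPM in WT and 46.6 and 48.0 in *Arid1a* KO. With TMM factors the fall with JSH-23 was -0.53 on the log2 scale in WT and -0.18 in *Arid1a* KO. The latter lost its call when either *Arid1a* KO vehicle replicate 2 or *Arid1a* KO JSH-23 replicate 1 was left out (-0.127 and -0.142). In deposited TPM the mean of *Gmnn* went from 112 to 75.6 with JSH-23 in WT and from 117 to 87.7 in *Arid1a* KO.

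The MCM genes rose and fell as 1 block. *Mcm2* to *Mcm7*, the helicase ring, and *Mcm10*, which helps activate it, were all 7 called higher in *Arid1a* KO under both treatments and all 7 called lower with JSH-23 in both genotypes. Their log2 fold changes were 0.28 to 0.77 for genotype with vehicle, 0.47 to 0.94 for genotype with JSH-23, -0.37 to -1.04 for JSH-23 in *Arid1a* KO and -0.42 to -1.08 for JSH-23 in WT. *Mcm3* (chr1:20802966-20820312) was at 125 CPM in both WT samples with vehicle, 59.8 and 59.9 in WT with JSH-23, 184 in both *Arid1a* KO samples with vehicle, and 103 and 108 in *Arid1a* KO with JSH-23. No groups overlapped, and the 2 samples of a group differed by far less than the groups. *Mcm3* was 2.09-fold lower with JSH-23 in WT (log2 fold change -1.07, standard error 0.042, edgeR adjusted p = 5.62e-34) and 1.75-fold lower in *Arid1a* KO.

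*Mcm4* (chr16:15623897-15637400) was at 69.1 and 67.2 CPM in WT with vehicle, 31.2 and 33.2 in WT with JSH-23, 113 and 119 in *Arid1a* KO with vehicle, and 64.2 and 59.9 in *Arid1a* KO with JSH-23. It had the largest genotype difference of the ring genes, 1.70-fold with vehicle and 1.92-fold with JSH-23, and fell 2.12-fold with JSH-23 in WT. *Mcm5* (chr8:75109468-75128439) was at 117 and 119 CPM in WT with vehicle, 64.9 and 62.9 in WT with JSH-23, 150 and 152 in *Arid1a* KO with vehicle, and 110 and 114 in *Arid1a* KO with JSH-23. The WT samples with JSH-23 were set well below the other 6. Its fall with JSH-23 was 1.85-fold in WT and 1.35-fold in *Arid1a* KO. *Mcm10* (chr2:4990724-5012791) was at 35.7 and 36.9 CPM in WT with vehicle, 20.2 and 18.7 in WT with JSH-23, 59.7 and 59.2 in *Arid1a* KO with vehicle, and 27.8 and 29.8 in *Arid1a* KO with JSH-23. It fell 2.06-fold with JSH-23 in *Arid1a* KO, more than any gene of the ring.

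Cdc45 and the GINS subunits, the partners of MCM in the active helicase, did not move as a block. *Cdc45* (chr16:18780447-18811972) was at 33.1 and 29.8 CPM in WT with vehicle, 17.9 and 19.8 in WT with JSH-23, 56.9 and 58.7 in *Arid1a* KO with vehicle, and 26.1 and 31.3 in *Arid1a* KO with JSH-23. It was 1.84-fold higher in *Arid1a* KO with vehicle (log2 fold change 0.88, standard error 0.069, edgeR adjusted p = 3.08e-18) and fell 2.01-fold with JSH-23 in *Arid1a* KO. *Gins3* (chr8:95633559-95645059) was at 9.03 and 6.94 CPM in WT with vehicle, 4.75 and 4.19 in WT with JSH-23, 15.5 and 13.8 in *Arid1a* KO with vehicle, and 6.05 and 6.62 in *Arid1a* KO with JSH-23. As with *Cdc45*, the *Arid1a* KO samples with vehicle were the highest. *Gins3* was 1.83-fold higher in *Arid1a* KO with vehicle and fell 2.30-fold with JSH-23 in *Arid1a* KO. Its genotype difference with JSH-23, 0.50, lost its call with DESeq2 (adjusted p = 0.0585) and with limma on log2(TPM + 1) and log2(TPM + 0.1) (adjusted p = 0.12 and 0.103). The call was also lost when either WT JSH-23 replicate 2 or *Arid1a* KO JSH-23 replicate 2 was left out (0.416 and 0.445).

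With TMM factors, the other GINS subunits were not lower with JSH-23 by the test in *Arid1a* KO tumors. *Gins1* (chr2:150909556-150931280) was at 9.68 and 9.18 CPM in WT with vehicle, 7.32 and 6.26 in WT with JSH-23, 11.9 and 10.7 in *Arid1a* KO with vehicle, and 13.2 and 12.7 in *Arid1a* KO with JSH-23. *Gins2* was at 22.7 to 26.8 CPM in the vehicle samples of both genotypes and in *Arid1a* KO with JSH-23, and at 17.0 and 17.7 only in WT with JSH-23. All 4 GINS genes fell with JSH-23 in WT, by 0.22 to 0.83 on the log2 scale. The call of *Gins1* was lost without WT JSH-23 replicate 2 (-0.36, edgeR adjusted p = 0.0642), and that of *Gins4* without WT vehicle replicate 1 or without WT JSH-23 replicate 1 (edgeR adjusted p = 0.0811 and 0.0763). Those of *Gins2* and *Gins3* held with any 1 sample left out. In *Arid1a* KO only *Gins3* fell by the test. The differences of *Gins1*, *Gins2* and *Gins4* were 0.20, 0.10 and 0.11, none of which passed (edgeR adjusted p = 0.106, 0.286 and 0.105). The sign of these differences depended on the scaling. In deposited TPM their means went from 17.8 to 17.3, from 60.4 to 54.6 and from 82.7 to 75.9 with JSH-23. *Gins1* was 1.90-fold higher in *Arid1a* KO than in WT with JSH-23 (log2 fold change 0.93, standard error 0.13, edgeR adjusted p = 3.09e-09).

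**Figure D2:**
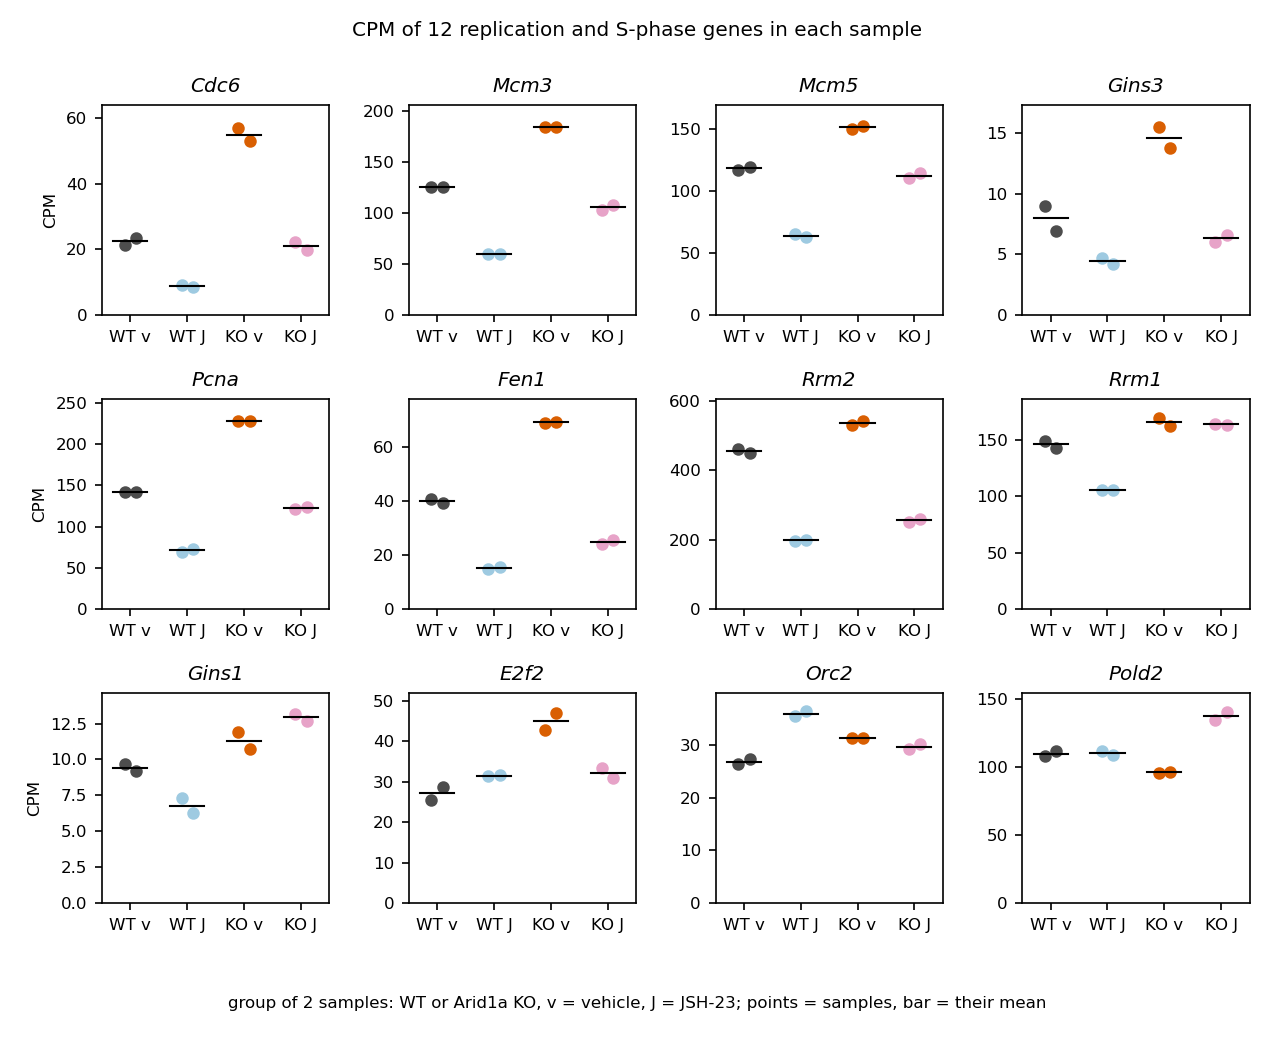
CPM (vertical axes, from 0) of 12 genes in the 2 samples of each group, with the mean as a bar. *Cdc6*, *Mcm3*, *Pcna* and *Fen1* peak in *Arid1a* KO with vehicle and are lowest in WT with JSH-23, *Rrm1* stays at 162 to 169 CPM in the *Arid1a* KO samples, and *Orc2* and *Pold2* follow neither pattern.

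Of the 8 polymerase and primase genes, 7 were higher in *Arid1a* KO with vehicle and all 8 were with JSH-23, while 7 were lower with JSH-23 in each genotype. *Pole*, the catalytic subunit of the leading-strand polymerase, was 1.61-fold higher in *Arid1a* KO with vehicle and fell 1.74-fold with JSH-23 in *Arid1a* KO. *Prim1* and *Prim2*, the primase subunits, gave like values: 0.42 and 0.41 for genotype with vehicle, and -0.38 and -0.37 for JSH-23 in *Arid1a* KO. *Pold2*, the accessory subunit of polymerase δ, was the exception. *Pold2* (chr11:5872180-5878256) was at 108 and 112 CPM in WT with vehicle, 112 and 109 in WT with JSH-23, 96.0 and 96.5 in *Arid1a* KO with vehicle, and 135 and 141 in *Arid1a* KO with JSH-23. The *Arid1a* KO groups were the lowest and the highest, and the WT groups overlapped. It rose 1.43-fold with JSH-23 in *Arid1a* KO (log2 fold change 0.52, standard error 0.036, edgeR adjusted p = 9.78e-21), and in WT the difference was 0.01 (edgeR adjusted p = 0.817). With vehicle it was lower in *Arid1a* KO, with a log2 fold change of -0.19. *Pold1*, the catalytic subunit of the same enzyme, had a log2 fold change of 0.24 in that comparison and fell by 0.19 with JSH-23 in *Arid1a* KO.

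PCNA, the sliding clamp, is a common proliferation marker. *Pcna* (chr2:132249286-132253180) was at 142 CPM in both WT samples with vehicle, 69.7 and 73.1 in WT with JSH-23, 228 in both *Arid1a* KO samples with vehicle, and 121 and 124 in *Arid1a* KO with JSH-23. No groups overlapped. *Pcna* was 1.61-fold higher in *Arid1a* KO with vehicle (log2 fold change 0.68, standard error 0.031, edgeR adjusted p = 5.06e-30), fell 1.86-fold with JSH-23 in *Arid1a* KO and fell 1.99-fold in WT. Among the genes of the clamp loader, *Rfc3*, *Rfc4* and *Rfc5* fell with JSH-23 in *Arid1a* KO by 0.68 to 1.03 on the log2 scale. *Rfc1*, the large subunit, fell by 0.10 (call lost without *Arid1a* KO JSH-23 replicate 1, at -0.07). *Rfc2* had -0.01 with TMM factors, which did not pass the test (edgeR adjusted p = 0.89). In deposited TPM the mean of *Rfc2* went from 136 to 115 with JSH-23 in *Arid1a* KO. *Rfc3* (chr5:151642817-151651208) was at 24.6 and 22.5 CPM in WT with vehicle, 13.6 and 13.9 in WT with JSH-23, 46.6 and 44.7 in *Arid1a* KO with vehicle, and 23.1 and 21.6 in *Arid1a* KO with JSH-23. It was 1.93-fold higher in *Arid1a* KO with vehicle, the second-largest genotype difference after *Cdc6* in vehicle-treated tumors.

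The RPA complex coats single-stranded DNA, and its subunits differed widely. *Rpa1*, the large subunit, was at 295 to 324 CPM in all 8 samples. With TMM factors its log2 fold changes were within 0.09 of 0 in all 4 comparisons. This depended on the scaling. In deposited TPM the mean of *Rpa1* went from 255 to 203 with JSH-23 in *Arid1a* KO and from 240 to 228 in WT. *Rpa2* (chr4:132768360-132778746) was at 20.1 and 19.6 CPM in WT with vehicle, 11.3 and 9.30 in WT with JSH-23, 34.2 and 36.0 in *Arid1a* KO with vehicle, and 19.3 and 16.8 in *Arid1a* KO with JSH-23. It was 1.77-fold higher in *Arid1a* KO with vehicle and fell 1.95-fold with JSH-23 in *Arid1a* KO and 1.92-fold in WT. *Rpa3* lay between them, with 0.25 for genotype with vehicle and -0.28 for JSH-23 in *Arid1a* KO. The former call was lost without WT vehicle replicate 2 (0.206) and the latter without *Arid1a* KO JSH-23 replicate 1 (-0.156).

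Fen1 cuts the flaps of Okazaki fragments and Lig1 joins them. *Fen1* (chr19:10199132-10204393) was at 40.7 and 39.3 CPM in WT with vehicle, 14.7 and 15.6 in WT with JSH-23, 68.9 and 69.3 in *Arid1a* KO with vehicle, and 23.9 and 25.7 in *Arid1a* KO with JSH-23. The JSH-23 samples of both genotypes were below all vehicle samples. The fall of *Fen1* was the largest of the list in both genotypes: 2.78-fold in *Arid1a* KO (log2 fold change -1.48, standard error 0.062, edgeR adjusted p = 2.15e-32) and 2.64-fold in WT. *Lig1* fell 1.63-fold and 1.72-fold.

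Ribonucleotide reductase, which makes the precursors of DNA, is built from Rrm1 and Rrm2. *Rrm2* (chr12:24708254-24714146) was at 462 and 451 CPM in WT with vehicle, 197 and 199 in WT with JSH-23, 532 and 544 in *Arid1a* KO with vehicle, and 250 and 261 in *Arid1a* KO with JSH-23. It fell 2.10-fold in *Arid1a* KO (log2 fold change -1.07, standard error 0.023, edgeR adjusted p = 4.45e-50) and 2.31-fold in WT, and was 1.18-fold higher in *Arid1a* KO with vehicle. *Rrm1* was at 143 to 149 CPM in WT with vehicle, 105 in both WT samples with JSH-23, and 162 to 169 in all *Arid1a* KO samples. It fell 1.39-fold with JSH-23 in WT, and in *Arid1a* KO its difference of -0.02, with a 95% interval of -0.08 to 0.05, did not pass the test (edgeR adjusted p = 0.644). The interval does not cover the choice of scaling. In deposited TPM the mean of *Rrm1* went from 105 to 87.9 with JSH-23 in *Arid1a* KO and from 92.0 to 64.2 in WT.

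Tyms makes thymidylate and Tk1 salvages thymidine. *Tyms* (chr5:30038546-30073645) was at 23.9 and 23.2 CPM in WT with vehicle, 14.2 and 17.8 in WT with JSH-23, 27.9 and 29.6 in *Arid1a* KO with vehicle, and 22.3 and 22.6 in *Arid1a* KO with JSH-23. It was 1.22-fold higher in *Arid1a* KO with vehicle (log2 fold change 0.29, standard error 0.083, edgeR adjusted p = 0.00229). Its call was lost without *Arid1a* KO vehicle replicate 2 (0.243), and with limma on log2(TPM + 1) and log2(TPM + 0.1) (adjusted p = 0.0585 and 0.0678). Its pseudogene *Tyms-ps* had at most 0.11 CPM. *Tk1* (chr11:117815519-117826087) was at 50.5 and 49.1 CPM in WT with vehicle, 28.3 and 27.8 in WT with JSH-23, 65.4 and 75.1 in *Arid1a* KO with vehicle, and 51.3 and 48.8 in *Arid1a* KO with JSH-23. It was 1.78-fold higher in *Arid1a* KO than in WT with JSH-23.

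E2F1 and E2F2 are activator E2F factors, and UHRF1 couples DNA methylation to replication. *E2f1* (chr2:154559400-154569892) was at 41.2 and 47.7 CPM in WT with vehicle, 38.3 and 39.9 in WT with JSH-23, 65.3 and 65.2 in *Arid1a* KO with vehicle, and 51.0 and 51.9 in *Arid1a* KO with JSH-23. Both *Arid1a* KO groups were above both WT groups. It was 1.47-fold higher in *Arid1a* KO with vehicle and fell 1.27-fold with JSH-23 in *Arid1a* KO. Its fall in WT, 0.19 on the log2 scale (edgeR adjusted p = 0.0104), lost its call with DESeq2 (adjusted p = 0.0679). The call was also lost without WT vehicle replicate 2 or without WT JSH-23 replicate 1, with values of -0.08 and -0.15.

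*E2f2* (chr4:136172274-136196057) was at 25.4 and 28.8 CPM in WT with vehicle, 31.4 and 31.6 in WT with JSH-23, 42.9 and 47.0 in *Arid1a* KO with vehicle, and 33.3 and 30.9 in *Arid1a* KO with JSH-23. Only the *Arid1a* KO samples with vehicle stood apart from the other 6, and the genotypes overlapped with JSH-23. It was 1.66-fold higher in *Arid1a* KO with vehicle (log2 fold change 0.74, standard error 0.071, edgeR adjusted p = 2.91e-14), and with JSH-23 the difference was 0.03 (edgeR adjusted p = 0.802). With JSH-23 it fell by 0.49 on the log2 scale in *Arid1a* KO. In WT it was 0.22 higher with JSH-23 (edgeR adjusted p = 0.013), a call lost without WT vehicle replicate 1 (0.14, edgeR adjusted p = 0.23), with DESeq2 (adjusted p = 0.0767) and with limma on log2(TPM + 1) and log2(TPM + 0.1) (adjusted p = 0.109 and 0.105). *Uhrf1* (chr17:56303337-56323486) followed the main pattern, at 146 CPM in both WT samples with vehicle, 94.5 and 92.4 in WT with JSH-23, 190 and 192 in *Arid1a* KO with vehicle, and 145 and 143 in *Arid1a* KO with JSH-23. It fell 1.56-fold with JSH-23 in WT and 1.33-fold in *Arid1a* KO.

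Levels of different genes can be compared per length on the deposited TPM scale. There *Rrm2* was the highest of the list in WT with vehicle, at 528 TPM, followed by *Pcna* (284 TPM), *Rpa1* (240 TPM) and *Pold2* (164 TPM). *Orc1* (5.15 TPM), *Gins3* (8.35 TPM), *Tyms* (8.70 TPM) and *Cdc6* (11.1 TPM) were the lowest. Subunits of 1 complex were not at like levels: *Rpa1* and *Rpa3* were at 240 and 120 TPM and *Rpa2* at 28.2 TPM, and *Gins4* and *Gins2* were at 71.8 and 60.0 TPM while *Gins1* and *Gins3* were at 14.8 and 8.35 TPM. The low subunits *Rpa2* and *Gins3* were those that fell most within their complexes with JSH-23 in *Arid1a* KO. This did not hold across the list. Among the listed subunits of the origin recognition complex and of ribonucleotide reductase the highest fell most, *Orc6* (53.3 TPM) by 0.69 and *Rrm2* by 1.07.

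**Figure D3:**
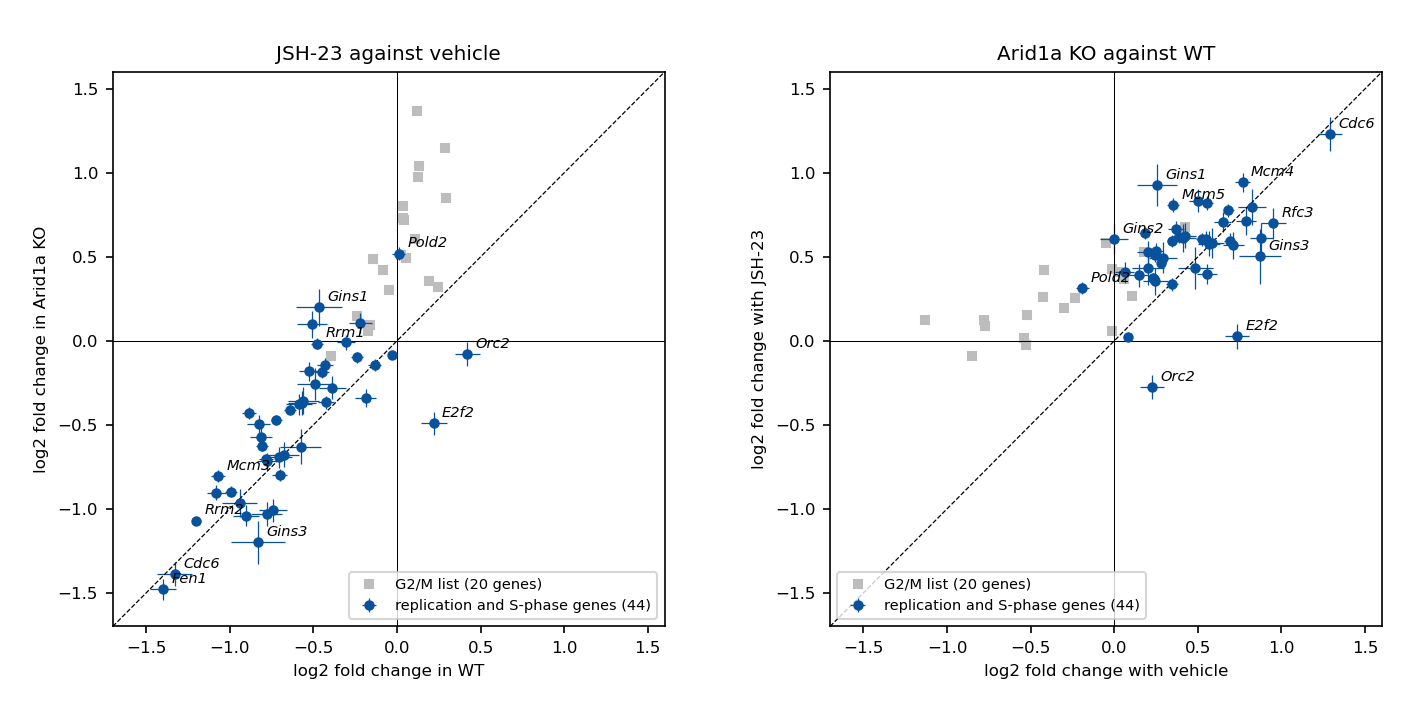
Log2 fold changes with standard errors of the 44 genes (blue) and of 20 G2/M genes (grey squares, no error shown). The left panel sets JSH-23 against vehicle in WT (horizontal) against *Arid1a* KO (vertical), and the right panel sets *Arid1a* KO against WT with vehicle (horizontal) against JSH-23 (vertical), with a dashed line of equal values. In the left panel 35 of the blue points are called lower on both axes, and *E2f2* and *Orc2* lie right of zero and below it.

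Whether JSH-23 acted differently in the genotypes was tested as the interaction, the log2 fold change in *Arid1a* KO minus that in WT. It was called for 20 of the 44 genes, more positive in *Arid1a* KO for 18 and more negative for 2 (20.5% and 17.9% of all genes). With library size as the only scaling it was 14 and 8 (13.3% and 26.9% of all genes), and with limma on log2(TPM + 1), which changes the test as well, it was 5 and 13 (7.47% and 32.6% of all genes). All genes moved too: the median interaction over all genes was -0.11 without scaling and -0.17 with TPM, against 0.00 with TMM factors, and the median JSH-23 log2 fold change in *Arid1a* KO was -0.13 and -0.20 against -0.02. Of the 20 genes, 7 were called in the same direction under all 5 scalings and scales tried. These were *Gins1* (0.67), *Gins2* (0.61), *Pold2* (0.51), *Rrm1* (0.46) and *Mcm5* (0.46), which were more positive, and *E2f2* (-0.71) and *Orc2* (-0.50), which were more negative (TMM values, edgeR adjusted p from 1.02e-12 to 0.00144). For *Cdc6* the interaction was -0.06 (standard error 0.13, edgeR adjusted p = 0.762) and for *Fen1* -0.08 (edgeR adjusted p = 0.614). With a coefficient of variation of 0.1, the interaction was called for *E2f2* alone of the 44. At 0.2 it was called for 0 of the 44 by edgeR, with 0 at an unadjusted p under 0.05, while DESeq2 with its own estimate of the spread called 18.

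Other genes of the pathway were counted in the same way, and their counts are to be read beside the shares of all genes. In *Arid1a* KO against WT, 25.0% of all genes were called higher and 25.5% lower with vehicle, and 23.2% and 23.8% with JSH-23. On JSH-23 treatment 34.4% were called lower and 33.4% higher in *Arid1a* KO, and 27.2% and 28.6% in WT. Of 25 other replication factors, 20 were higher and 3 lower in *Arid1a* KO with vehicle, with a median log2 fold change of 0.33, and 15 were lower and 4 higher with JSH-23 in *Arid1a* KO, with a median of -0.21. *Dna2*, a nuclease of Okazaki fragments, had the largest fall, from a mean of 8.99 to 2.51 CPM with JSH-23 in *Arid1a* KO and from 6.29 to 2.83 CPM in WT. *Dbf4*, the activator of the Cdc7 kinase, went the other way in WT, from 49.7 to 75.8 CPM with JSH-23. *Atad5*, which unloads the clamp, was 1.75-fold higher in *Arid1a* KO than in WT with JSH-23. Of 11 fork protection and checkpoint genes, 8 were lower and 2 higher with JSH-23 in *Arid1a* KO, and 8 were lower and 1 higher in WT. With limma on log2(TPM + 1) this was 9 and 0, and 8 and 0. *Timeless*, a fork protection factor, fell 2.22-fold in WT, from 43.1 to 19.4 CPM.

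The histone supply and chromatin assembly list had 7 of 8 genes higher in *Arid1a* KO under each treatment, and 6 and 5 of 8 lower with JSH-23 in *Arid1a* KO and WT. With JSH-23, 1 was higher in *Arid1a* KO and 2 in WT. With limma on log2(TPM + 1), 5 were higher in *Arid1a* KO than in WT with JSH-23, and with JSH-23 in *Arid1a* KO 7 were lower and 0 higher. The other nucleotide supply genes, 11 in all, gave 7 higher and 4 lower in *Arid1a* KO with vehicle, and 6 lower and 5 higher with JSH-23 in *Arid1a* KO. *Dctd*, the dCMP deaminase, was lower in *Arid1a* KO, at 21.3 against 38.6 CPM with vehicle. *Nme1*, a nucleoside diphosphate kinase, was 1.74-fold higher in *Arid1a* KO with JSH-23. Among 11 further E2F and pocket protein genes, 4 were higher and 2 lower in *Arid1a* KO with vehicle, and *E2f3*, another activator E2F, was lower in *Arid1a* KO with JSH-23 (19.0 against 26.3 CPM).

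The cyclins E drive entry into S phase with Cdk2. *Ccne1* was at a mean of 3.19 CPM in WT and 9.63 in *Arid1a* KO with vehicle, so the log2 fold change was 1.59 (standard error 0.17, edgeR adjusted p = 4.75e-13), and *Ccne2* was at 19.7 and 49.4 CPM. With JSH-23 *Ccne2* fell to 14.9 CPM in *Arid1a* KO, a 3.32-fold fall, whereas *Ccne1* rose in WT to 6.11 CPM. Of the 16 tested G1/S cyclins, kinases and inhibitors, 9 were higher and 2 lower in *Arid1a* KO with vehicle, and 8 were lower and 5 higher with JSH-23 in *Arid1a* KO (11 and 2 with limma on log2(TPM + 1)).

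G2/M genes, which act later in the cell cycle, went against the replication genes in some comparisons and with them in another. The 20 genes of that list summed to 2997 and 3012 CPM in WT with vehicle, 3054 and 3075 in WT with JSH-23, 2729 and 2731 in *Arid1a* KO with vehicle, and 3833 and 3870 in *Arid1a* KO with JSH-23. The *Arid1a* KO groups were the lowest and the highest, the reverse of their order for the replication genes. With vehicle, 12 of the 20 were lower and 4 higher in *Arid1a* KO, with a median log2 fold change of -0.27. In JSH-23-treated tumors 16 were higher and 0 lower in *Arid1a* KO, the direction of the replication genes, with a median of 0.26 (9 higher and 5 lower, with a median of 0.07, with limma on log2(TPM + 1)). With JSH-23 in *Arid1a* KO, 18 were called higher and the median was 0.50, against -0.45 for the 44 replication genes. With limma on log2(TPM + 1) this was 14 higher and 3 lower with a median of 0.26, and the median stayed positive. *Cdc20*, an activator of the anaphase-promoting complex, was at 109 and 106 CPM in WT with vehicle, 117 in both WT samples with JSH-23, 49.7 and 48.8 in *Arid1a* KO with vehicle, and 125 and 129 in *Arid1a* KO with JSH-23. Only the *Arid1a* KO samples with vehicle were low. *Ube2c*, the ubiquitin-conjugating enzyme that works with it, rose 2.22-fold with JSH-23 in *Arid1a* KO. In WT, 8 of the 20 were higher and 5 lower with JSH-23, with a median of 0.04, where the replication genes had -0.61. With DESeq2 this was 4 higher and 5 lower, so no direction is given for the list in WT.

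**Figure D4:**
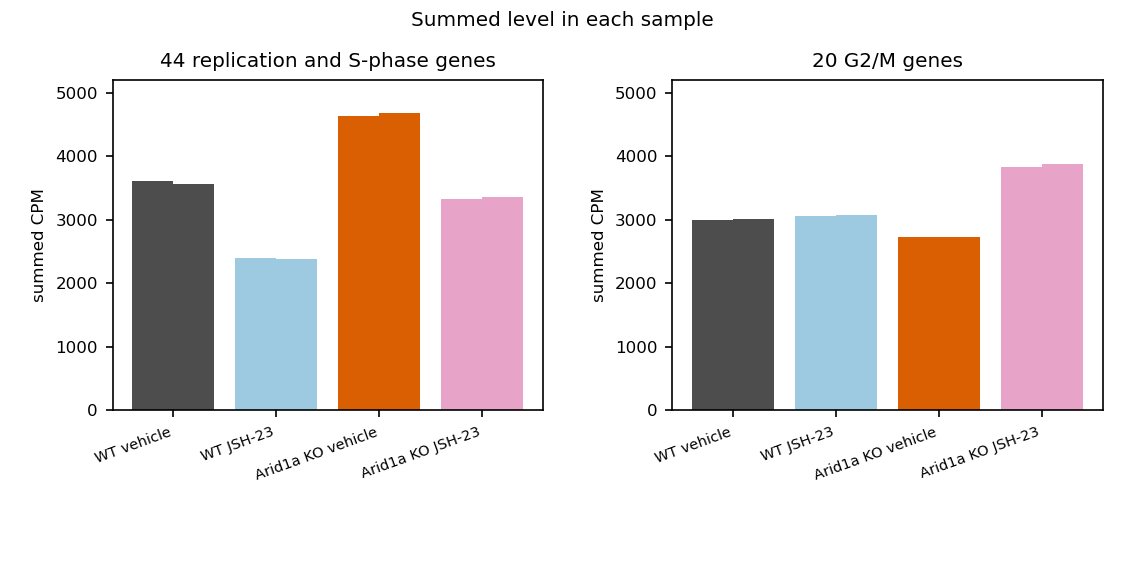
Summed CPM (vertical axes, from 0) of the 44 replication and S-phase genes (left) and of 20 G2/M genes (right) in each of the 8 samples, 1 bar a sample. On the left the *Arid1a* KO samples with vehicle are highest, at 4629 and 4670 CPM, and on the right they are lowest, at 2729 and 2731 CPM.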

How the data were processed

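Epithelial cells sorted from Myc-CaP tumors were profiled by RNA-seq in 8 samples, 2 in each of 4 groups taken from the sample labels. The authors deposited whole-number read counts per gene without normalization. The study's methods name TopHat2 and the submitters' processing notes name HISAT2, with HTSeq, on GRCm38/mm10, so the aligner was not settled here. The methods state strand-specific counting of the best match. The authors also deposited TPM values, which keep no depth.

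Genes passing filterByExpr were scaled with TMM factors (0.949 to 1.03). A quasi-likelihood model with 1 mean per group was fitted to all 8 samples together, using edgeR 4.0.16 under R 4.3.3, with Benjamini-Hochberg adjustment over all genes tested. Called means an adjusted p under 0.05, and 1.5-fold is the study's threshold. The scripts were tested on simulated data. No set test was run.

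The genes described and all gene lists were chosen with earlier results of these data known. Genes with values in every sample were, in each pairwise comparison, the 5 that rose most and the 5 that fell most among those called without overlap, with *Mcm5*, *Cdc6*, *Cdt1*, *Gmnn*, *Cdc45*, *Pcna*, *Rrm2*, *Tyms*, *Uhrf1*, *E2f1* and *E2f2*, and from the other lists the 2 largest of each. *Rrm1*, *Gins2*, *Rpa1* and *Orc6* were singled out after their values were seen. Alternatives were DESeq2 1.42.0, limma 3.58.1 on log2(TPM + 1) and log2(TPM + 0.1), no scaling, other filters, a replicate block, fixed coefficients of variation, only the groups compared, and each sample left out. Floors and counts of 3 cover counting error only.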

Additional observations from a re-analysis of the deposited data

Results flagged for a closer look

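The interaction term of edgeR's quasi-likelihood test (Benjamini-Hochberg adjustment over all genes tested) was called for 20 of the 44 genes. It was more positive in *Arid1a* KO for 18 and more negative for 2, against 20.5% and 17.9% of all genes. With a coefficient of variation of 0.1 it was called for 1 of the 44, and at 0.2 for 0. The values, as the log2 fold change in *Arid1a* KO minus that in WT, were -0.71 for *E2f2* and -0.50 for *Orc2*, and then 0.13 for *Rrm2*, 0.14 for *Rfc1*, 0.18 for *Mcm7*, 0.23 for *Uhrf1*, 0.24 for *Pola2*, 0.25 for *Mcm6*, 0.26 for *Mcm3*, 0.27 for *Pold1*, 0.29 for *Pola1*, 0.30 for *Rfc2*, 0.33 for *Gins4*, 0.33 for *Tk1*, 0.34 for *Gmnn*, 0.46 for *Mcm5*, 0.46 for *Rrm1*, 0.51 for *Pold2*, 0.61 for *Gins2* and 0.67 for *Gins1*. With limma on log2(TPM + 1) the values of *Rrm2*, *Rfc1* and *Mcm7* were -0.07, -0.05 and -0.02, and those of *Uhrf1*, *Pola2*, *Mcm6*, *Mcm3*, *Pold1*, *Pola1*, *Rfc2*, *Gins4*, *Tk1* and *Gmnn* were positive but did not pass the test. No group had enough samples for a test of single outlying samples.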

How the results depend on the processing

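Among the 44 genes, the direction of the median held under every alternative in the 4 pairwise comparisons, and the median of the interaction did not, at -0.0607 with limma on log2(TPM + 1) and -0.0606 on log2(TPM + 0.1) against 0.14. *Rrm2* also turned in the interaction, to -0.0667 and -0.0664. With limma on TPM the interaction was more positive for 5 genes under both pseudocounts and more negative for 13 (pseudocount 1) and 11 (pseudocount 0.1), and without scaling it was more negative for 8. In JSH-23-treated tumors the genotype comparison gave 12 genes changed 1.5-fold without scaling and 7 with limma on TPM, where 2 genes were lower. Of all 13921 genes, 397 were 1.5-fold higher without scaling, and 168 (pseudocount 1) and 266 (pseudocount 0.1) with limma. JSH-23 in *Arid1a* KO gave 28 genes at least 1.5-fold lower with limma on log2(TPM + 0.1). In that setting 3517 of all 13921 genes were called and 1.5-fold lower, and the median over all genes was -0.251. JSH-23 in WT raised 1 gene with DESeq2, with limma on TPM and at a coefficient of variation of 0.1. At that coefficient, 0 genes were lower in *Arid1a* KO under either treatment (0 at an unadjusted p under 0.05, and 1 by DESeq2), 23 were higher with vehicle, and the interaction was called for 1, past 1.5-fold and more negative, and for 0 as more positive (5 unadjusted, 16 by DESeq2). At 0.2, 2 genes with vehicle and 1 with JSH-23 were higher in *Arid1a* KO and past 1.5-fold, 12 and 9 fell with JSH-23 in *Arid1a* KO and WT, the 9 past 1.5-fold, 0 rose, and the interaction was called for 0. The causes of these changes were not tested. Leaving out 1 sample at a time, the counts ranged from 1 to 2 for genes higher with JSH-23 in *Arid1a* KO (2 without *Arid1a* KO vehicle replicate 1 or *Arid1a* KO JSH-23 replicate 2), from 1 to 2 for those higher in WT (1 without WT vehicle replicate 1), and from 2 to 4 for a more negative interaction (4 without WT vehicle replicate 1), with the lone sample of a group assumed to vary like the other groups. Samples with the same number did not deviate together (correlations from -0.0964 to 0.0401). The samples of a group varied little beyond counting error (common coefficient 1.61%). Such correlations therefore cannot exclude that the numbers pair the samples. With the replicate block the interaction was more positive for 19 genes and more negative for 3, and the other counts differed by at most 1. Of the values of single named genes, 131 lost their call in an alternative, 69 of them at a coefficient of 0.2, and 1513 kept it. With 2 samples a group, the low spread between samples sets the number of calls.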
